A study of Mus musculus with 2 samples.

Results

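The antiviral effector genes of the interferon response were examined in brain microglia of mice that lack PARK7/DJ-1 (KO) and of wildtype (WT) mice. The set was chosen by name and holds 10 of the 19537 genes listed in the deposited counts: Ifit1, Ifit2, Ifit3, Rsad2, Oasl1, Oasl2, Oas1a, Mx1, Isg15 and Usp18. KO mice carried a gene trap in Park7, the gene of DJ-1, in all cells of the body and were compared with WT littermates on the same C57BL/6NCrl background. Both groups received a single injection of lipopolysaccharide (LPS), a component of bacterial membranes, and brains were taken 24 h later. CD11b+CD45int cells were sorted and captured by Drop-seq, which reads the 3' ends of transcripts and counts molecules by unique molecular identifiers (UMIs). Each genotype, called KO LPS and WT LPS below, gave 1 library of 2 pooled mice. Genotype and library cannot be told apart, no test between genotypes was possible, and the intervals below (95%) cover counting error only. No untreated library was used here, so that nothing below measures the response to LPS itself.

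Type I interferons bind the receptor pair Ifnar1 and Ifnar2, which activates the kinases Jak1 and Tyk2. Transcription factors, among them Stat2 and Irf9, then assemble and bind the interferon-stimulated response element (ISRE) in front of interferon-stimulated genes. The products of the genes examined here block viruses at many steps. Microglia use these genes in viral infection, and subsets of microglia that carry them are known from ageing and injured brain.

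The 5 sequences that follow are shown because they hold the core letters of the ISRE. Each is the 200 bases in front of the annotated start of the gene, 5' to 3' on the strand of the gene, from RefSeq annotation of GRCm38.p6, with capitals for matches to the ISRE core, which reads GAAA, any 2 bases and GAAA, or TTTC, any 2 bases and TTTC on the other strand.
Ifit1 (chr19:34640689-34640888, plus strand): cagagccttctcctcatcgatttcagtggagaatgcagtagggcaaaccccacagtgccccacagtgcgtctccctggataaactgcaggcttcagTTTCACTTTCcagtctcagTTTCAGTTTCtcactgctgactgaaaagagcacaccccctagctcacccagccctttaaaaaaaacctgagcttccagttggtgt
Ifit3 (chr19:34583329-34583528, plus strand): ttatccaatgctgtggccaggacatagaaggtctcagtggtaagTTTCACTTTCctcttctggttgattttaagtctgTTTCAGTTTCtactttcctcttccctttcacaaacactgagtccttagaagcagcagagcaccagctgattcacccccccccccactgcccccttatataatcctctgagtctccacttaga
Rsad2 (chr12:26456453-26456652, minus strand): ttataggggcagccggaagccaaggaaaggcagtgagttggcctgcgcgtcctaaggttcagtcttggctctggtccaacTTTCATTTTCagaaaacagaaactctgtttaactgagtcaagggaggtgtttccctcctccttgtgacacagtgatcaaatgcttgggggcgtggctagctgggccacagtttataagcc
Isg15 (chr4:156200819-156201018, minus strand): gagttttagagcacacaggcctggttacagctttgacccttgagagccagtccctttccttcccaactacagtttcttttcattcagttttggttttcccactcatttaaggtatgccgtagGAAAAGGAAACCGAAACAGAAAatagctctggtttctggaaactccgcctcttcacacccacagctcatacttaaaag
Oas1a (chr5:120907526-120907725, minus strand): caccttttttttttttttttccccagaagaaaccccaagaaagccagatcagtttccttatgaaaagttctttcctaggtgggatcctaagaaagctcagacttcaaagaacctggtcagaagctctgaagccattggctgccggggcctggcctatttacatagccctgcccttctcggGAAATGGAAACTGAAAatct

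Of the 10 genes, 8 had a promoter window in the RefSeq table, and Mx1 and Usp18 had none. Ifit1 and Ifit3 each held 2 matches and Rsad2 held 1. The 3 matches of Isg15 overlapped each other and read as a single run of capitals, and the 2 matches of Oas1a also overlapped and ended 10 and 4 bases before the start. The core was not found in the windows of Ifit2, Oasl1 and Oasl2. Among all 32851 windows of 300 bases, 3.44% held the core. The letters TTCNNNGAA, the core of the interferon gamma-activated sequence, were found for Ifit2 and Oas1a, beside 8.30% of all windows, and did not overlap a match to the ISRE core. A match describes letters and is not a measured binding site.

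Cells were barcodes with at least 500 UMIs and at least 100 genes. This gave 320 cells with 381305 UMIs in KO LPS and 1427 cells with 1989011 UMIs in WT LPS, with medians of 964 and 1065 UMIs per cell. No cell barcode was shared between the libraries. Park7 gave 1 UMI in KO LPS, or 2.62 UMIs per 1e6 UMIs of all cells of the library (CPM), and 323 UMIs in WT LPS, or 162 CPM, as the genotype labels say. The microglial markers P2ry12, Tmem119, Cx3cr1 and Csf1r were present in both libraries. Markers of other cells were unequal between the libraries: the 5 neutrophil genes in the files (of 6) summed to 64.4 CPM in WT LPS and 0 in KO LPS, and the 4 choroid plexus genes to 14.6 and 2130 CPM, above the level of the antiviral genes in KO LPS. Ttr, the main choroid plexus transcript, had a UMI in 59 of the 320 KO LPS cells. Genes of plasmacytoid dendritic cells, 2 of 5 in the files, were lower in KO LPS, with 1 UMI beside 49 (ratio 0.106, 0.00264 to 0.622). Cox6a2 gave 48 of these 49 WT LPS UMIs. In KO LPS, endothelial genes were 5.74-fold (3.39 to 9.74), oligodendrocyte genes 2.15-fold (1.06 to 4.11), astrocyte genes 2.13-fold (1.73 to 2.60) and border macrophage genes 1.81-fold (1.09 to 2.92) higher than in WT LPS. The border macrophage sum joins genes of opposite direction: in KO LPS and WT LPS, Mrc1 had 24 and 21 UMIs, and F13a1 had 0 and 46. Slc1a3 gave 102 of the 139 astrocyte UMIs in KO LPS and 279 of the 341 in WT LPS. The part of cells other than microglia in the results was not tested across the libraries.

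As a group, the antiviral effectors were 10.4-fold lower in KO LPS than in WT LPS cells, with an interval of 6.45 to 17.9. All 10 together gave 921 UMIs in WT LPS, or 463 CPM (434 to 494), and 17 UMIs in KO LPS, or 44.6 CPM (26.0 to 71.4). At least 2-fold lower levels in KO LPS were found for 10 of the 10 genes, beside 15.3% of the 9085 genes that reached 20 UMIs in the libraries combined. Taken as KO LPS over WT LPS, the median log2 ratio was -3.61 over the 10 genes, beside 0.03 over all genes. The median of the 10 was -2.27 without a prior count and with genes lacking a UMI in KO LPS set at a floor of 3 UMIs. In 5 of the 10 genes no UMI was found in KO LPS cells, beside 1.55% of all genes. These 5 reached the minimum of 20 UMIs by their WT LPS UMIs alone, and the 10 genes were chosen with earlier results of these data known, so that the counts and the median are a description and support nothing further. In bulk sums of this kind, fewer expressing cells and less RNA per cell cannot be told apart.

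**Figure D1:**
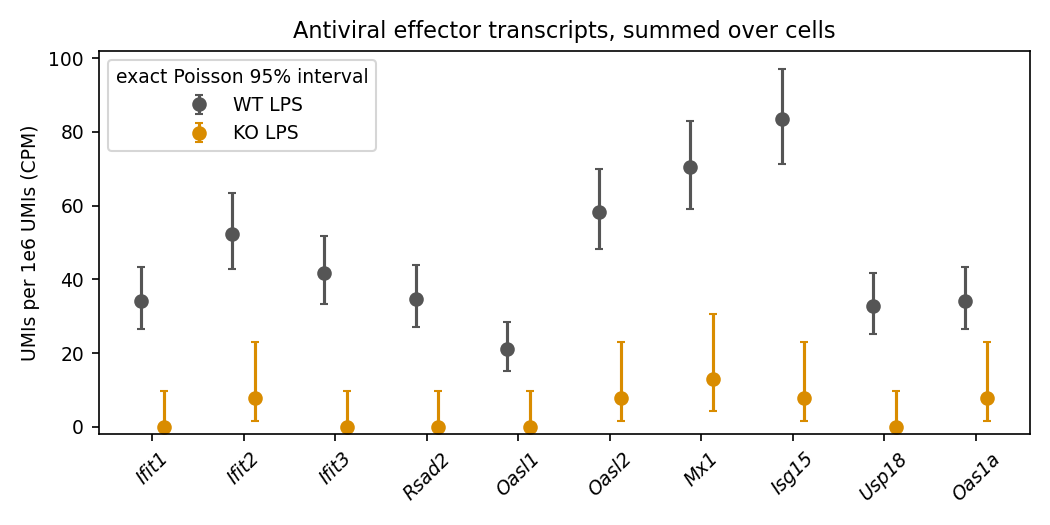
Levels of the 10 antiviral effector genes in KO LPS and WT LPS cells, as UMIs per 1e6 UMIs (CPM), with exact Poisson intervals (95%) as bars. The WT LPS level lies above the KO LPS level in 10 of 10 genes, and Ifit1, Ifit3, Rsad2, Oasl1 and Usp18 have no UMI in KO LPS.

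The Ifit genes encode proteins with tetratricopeptide repeats that hold on to foreign RNA and to the translation machinery. Ifit1 had 68 UMIs in WT LPS (34.2 CPM, 26.5 to 43.3) and 0 in KO LPS, where it was at least 4.35-fold lower, taking 3 UMIs as the floor. Ifit2 had 104 UMIs in WT LPS against 3 in KO LPS, that is 52.3 and 7.87 CPM, and a ratio of KO LPS over WT LPS of 0.150 (0.0305 to 0.452). Ifit3, which works as a partner of Ifit1, had 83 UMIs in WT LPS (41.7 CPM) and was not listed for KO LPS, at least 5.30-fold lower. All 3 genes lie in a cluster on chromosome 19, where Ifit2 and Ifit3 are direct neighbours. Their near copies were scarce: in WT LPS, Ifit3b had 22 UMIs, Ifit1bl1 had 5 and Ifit1bl2 had 3, and all 3 had 0 in KO LPS. The last 500 transcript bases of Ifit3 and Ifit3b are 92.4% identical, so that the split of reads between these 2 genes is uncertain. Ifit1 is also overlapped on the opposite strand by Ifit1bl2. Oas1a is overlapped by Oas1d, and Oasl1, Mx1, Isg15 and Usp18 by long noncoding RNAs, on the opposite strand, and Oasl1 also by a long noncoding RNA on its own strand. Whether counting used the strand is not given in the sources used here.

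Rsad2 encodes viperin, an enzyme that makes a nucleotide which stops viral RNA synthesis. It had 69 UMIs in WT LPS (34.7 CPM) and was not listed for KO LPS, which places it at least 4.41-fold lower there. Its neighbour on chromosome 12, Cmpk2, a mitochondrial nucleotide kinase, had 26 UMIs in WT LPS against 0 in KO LPS, at least 1.66-fold lower.

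The Oas proteins sense double-stranded RNA and respond by making short oligoadenylates. Oas1a had 68 UMIs in WT LPS against 3 in KO LPS, that is 34.2 and 7.87 CPM, and a ratio of 0.230 (0.0463 to 0.702), the highest ratio among those of the 10 genes that had a UMI in both libraries. Oasl2, a relative that carries ubiquitin-like domains, had 116 and 3 UMIs in the same order, that is 58.3 and 7.87 CPM, and a ratio of 0.135 (0.0274 to 0.404). Oasl1, known as a brake on the translation of Irf7, had 42 UMIs in WT LPS (21.1 CPM) and was not listed for KO LPS, at least 2.68-fold lower. Oasl1 and Oasl2 are direct neighbours on chromosome 5, and Oas1a lies on the same chromosome. The other Oas genes were near the limit of detection: in WT LPS and KO LPS, Oas1c had 10 and 2 UMIs, Oas1g 7 and 0, Oas2 7 and 1, and Oas3 1 and 1. The last 500 transcript bases of Oas1a and Oas1g are 74.6% identical.

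Mx1 encodes a dynamin-like GTPase that traps viral ribonucleoproteins. In C57BL/6 mice the gene carries a deletion that disables the protein, and its transcript is measured here. Mx1 had 140 UMIs in WT LPS against 5 in KO LPS, that is 70.4 and 13.1 CPM, and a ratio of 0.186 (0.0596 to 0.445). Its relative Mx2 had 110 and 10 UMIs and a ratio of 0.474 (0.221 to 0.906).

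Isg15 encodes a ubiquitin-like protein that is joined to other proteins, and Usp18 removes it and also restrains the interferon receptor. Isg15 had 166 UMIs in WT LPS against 3 in KO LPS, that is 83.5 and 7.87 CPM, and a ratio of 0.0943 (0.0192 to 0.280). Usp18 had 65 UMIs (32.7 CPM) in WT LPS and 0 in KO LPS, a level at least 4.15-fold lower. Among the enzymes that attach Isg15, Uba7, which activates it, had a ratio of 1.54 (0.856 to 2.64), Ube2l6, which transfers it, had 15 UMIs in WT LPS against 2 in KO LPS, and the ligase Herc6 had a ratio of 1.08 (0.761 to 1.51). Trim25, a ligase of RNA sensing, had a ratio of 0.326 (0.0862 to 0.876), and Isg20, an exonuclease of RNA, had 20 UMIs in WT LPS against 0 in KO LPS. Of the 15 relatives and partners in the files, 8 had at least 20 UMIs, and 5 of these were at least 2-fold lower in KO LPS and 0 at least 2-fold higher, the latter beside 13.5% of all genes. Of the 5, Ifit3b, Cmpk2 and Isg20 reached that minimum by their WT LPS UMIs alone, and the interval of the ratio of Isg20 reached 1.06, so that nothing is read from this count.

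The steps before the effectors were read from lists of pathway genes. Of the interferon ligands and receptors, 5 of 7 were in the files and 4 had enough UMIs, of which 0 passed 2-fold in either direction. Ifnar1 had a ratio of 0.724 (0.518 to 0.992) and Ifnar2 of 0.927 (0.722 to 1.18), and Ifng had 0 UMIs in both libraries. Of 9 signalling genes, 3 were at least 2-fold lower and 0 higher, beside 15.3% and 13.5% of all genes, which is also the background of the counts that follow. Irf7, the factor that amplifies interferon production, had the lowest ratio at 0.0660 (0.00165 to 0.379), and Jak1 the highest of the genes with at least 50 UMIs at 1.58 (1.30 to 1.90). Stat2 stood at 0.187 and Irf9 at 0.566. Of 10 genes that sense nucleic acid or LPS, 3 were at least 2-fold lower and 0 higher: Zbp1, a sensor of Z-form nucleic acid, had 143 UMIs in WT LPS against 0 in KO LPS (lower by at least 9.14-fold) and passed the minimum by WT LPS alone, Dhx58 had a ratio of 0.149 and Ifih1 of 0.248, whereas Tmem173, the gene of Sting, had a ratio of 1.51 (1.15 to 1.97).

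Of 16 other interferon-stimulated genes with enough UMIs, 15 were at least 2-fold lower in KO LPS and 0 higher, with a median log2 ratio of -2.36, beside 15.3% of all genes lower. Cxcl10, a chemokine that draws T cells, had 160 UMIs in WT LPS against 0 in KO LPS (lower by at least 10.2-fold) and passed the minimum by WT LPS alone, and Dtx3l had the highest ratio at 0.652 (0.382 to 1.05). Among 12 inflammatory genes, 11 were at least 2-fold lower in KO LPS, beside the same 15.3% of all genes, with Saa3, an acute-phase gene, at 8367 UMIs in WT LPS against 0, and Il1a at a ratio of 0.647 (0.366 to 1.07). Saa3 and Lcn2 passed the minimum by WT LPS alone. Among 12 homeostatic genes of microglia, 6 were at least 2-fold higher and 0 lower, from P2ry12 with a ratio of 9.46 (8.67 to 10.3) to C1qa with a ratio of 0.536 (0.503 to 0.571).

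A UMI of any of the 10 genes was found in 15 KO LPS cells (4.69%, exact Clopper-Pearson interval 2.65 to 7.61) and in 419 WT LPS cells (29.4%, 27.0 to 31.8). In WT LPS the share ran from 35 cells with Oasl1 (2.45%) to 129 cells with Isg15 (9.04%). Between these stood Rsad2 in 38 cells, Ifit1 in 48, Ifit3 in 50, Ifit2 in 57, Usp18 in 60, Oas1a in 62, Mx1 in 94 and Oasl2 in 102. These shares depend on depth and on free RNA, which enters every droplet. Barcodes with at most 100 UMIs were taken as droplets of free (ambient) RNA, since no cell type here could serve as one that lacks these genes. When every cell was thinned to 500 UMIs, 216 WT LPS cells (15.1%, 13.3 to 17.1) still had a UMI, and 15.7% would be reached by droplets of ambient RNA alone. For KO LPS the thinned share was 1.88% (0.691 to 4.04), and 3.46% for ambient RNA. The ambient shares assume that all 500 UMIs of a droplet are ambient and evenly spread, and they carry no interval. The share of cells with any 1 UMI therefore does not tell cells from ambient RNA, and nothing is read from it. Gene by gene, the thinned share in WT LPS was at or below that of ambient RNA for Ifit1 (1.47% and 2.04%), Ifit2 (2.03% and 3.58%), Ifit3 (1.54% and 2.04%) and Mx1 (2.80% and 2.81%). It was above it for Isg15 (3.22% and 1.73%), Usp18 (2.10% and 0.631%), Oas1a (1.61% and 0.474%), Oasl2 (2.80% and 1.88%), Rsad2 (1.54% and 0.946%) and Oasl1 (1.26% and 0.789%). The ambient profile itself rests on 108 UMIs of the 10 genes, and the level in cells exceeded that in ambient barcodes beyond counting error for Isg15 and Oas1a only among the 10.

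Higher counts were more frequent in WT LPS cells than an even spread of ambient RNA would give. At least 3 UMIs of the 10 genes in a thinned cell were found in 19 WT LPS cells (1.33%, 0.803 to 2.07), and ambient RNA would give 0.0734%. In KO LPS they were found in 0 of 320 cells, which allows a share of up to 0.938% by the limit of 3 counts and of up to 1.15% by the exact Clopper-Pearson interval. Both limits lie inside the WT LPS interval, so that a difference in this share was not detectable with this number of KO LPS cells. The 19 cells are called antiviral-high cells below. They held 210 of the 921 UMIs in WT LPS, or 22.8%. Without them, the other 1408 WT LPS cells held 711 UMIs, or 362 CPM (336 to 390), and the ratio of KO LPS to them was 0.123 (0.0713 to 0.199), or 8.12-fold lower.

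**Figure D2:**
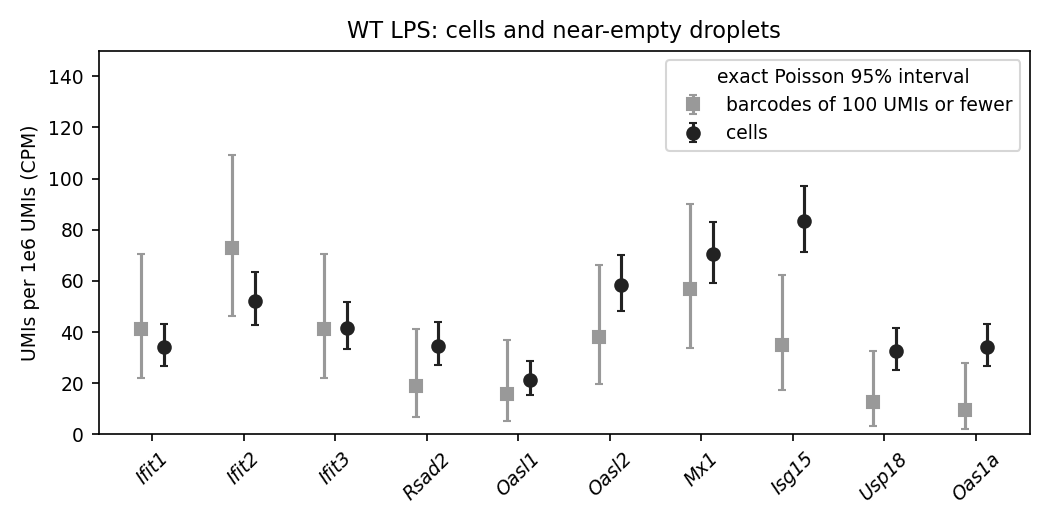
Levels of the 10 genes in WT LPS cells and in WT LPS barcodes with at most 100 UMIs, as UMIs per 1e6 UMIs (CPM), with exact Poisson intervals (95%) as bars. The level of Isg15 in cells lies above the interval of the near-empty barcodes, and the levels of Ifit1 and Ifit2 are lower in cells with overlapping intervals.

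The level of the 10 genes in ambient barcodes differed between the libraries in the same direction as in cells. It was 70.4 CPM (14 UMIs, 38.5 to 118) in KO LPS and 342 CPM (108 UMIs, 281 to 413) in WT LPS, or 4.86-fold lower (ratio 0.206, 0.109 to 0.361) in KO LPS. The ambient barcodes were unlike in size: 9236 held 198723 UMIs in KO LPS, and 4270 held 315748 UMIs in WT LPS. Those of WT LPS thus held more UMIs each, and whether they include broken or small cells was not tested. Cells exceeded ambient barcodes 1.35-fold (1.11 to 1.67) in WT LPS, and the ratio was 0.633 (0.294 to 1.39) in KO LPS. Within WT LPS, Isg15 was 2.40-fold (1.30 to 4.89) and Oas1a 3.60-fold (1.18 to 17.9) higher in cells than in ambient barcodes, whereas Ifit2 stood at 0.718 (0.454 to 1.18) and Ifit1 at 0.830. For Ifit3 the ratio was 1.01, so that none of the 3 Ifit genes was higher in cells than in ambient barcodes beyond counting error. The level also did not depend on how deeply a cell was read in a single direction: WT LPS cells of 500 to 1000, 1000 to 2000 and over 2000 UMIs gave 461, 397 and 529 CPM, and KO LPS cells of the same classes 47.5, 49.96 and 31.6 CPM.

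The UMIs of the effectors were held by few WT LPS cells. The 14 cells with the most (the top 1%) held 27.4% of them, and 58 cells (4.06%) held 50%. No value over all genes stands beside these shares. If each UMI fell on a cell in proportion to its depth, 611 cells would have at least 1 UMI, and 419 had. The cell with the most had 28 UMIs of 9 of the genes among its 10211 UMIs, and the next had 25 UMIs of 7 genes among 2410. The 10 cells with the most held 22.9%, the 50 with the most 47.7% and the 100 with the most 60.7%. In contrast, 276 of the 419 cells had a single UMI.

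**Figure D3:**
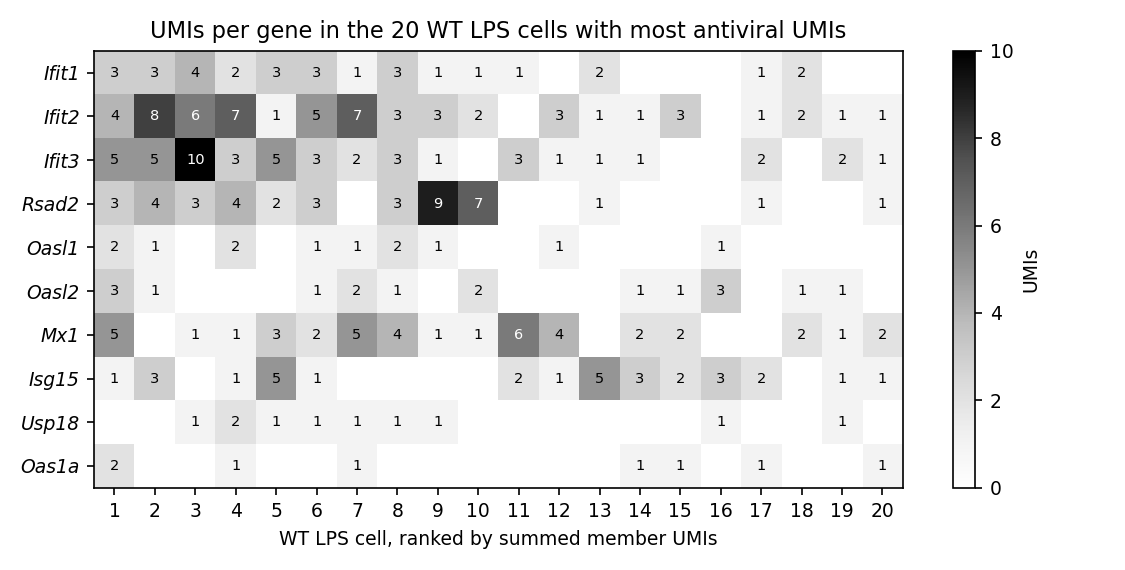
UMIs of each of the 10 genes (rows, grey scale and printed counts) in the 20 WT LPS cells with the most (columns, ranked by their sum). The 4 cells at the left carry UMIs of 6 to 9 of the 10 genes, and the UMIs of Rsad2 include 9 and 7 in single cells.

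Concentration differed between the genes. It was measured as dispersion, the variance between cells beyond counting error and cell depth, relative to the squared mean, where 0 means an even spread. Rsad2 had a dispersion of 26.8, Ifit3 of 19.6, Ifit2 of 16.6, Ifit1 of 8.97, Oasl1 of 6.33 and Mx1 of 5.30. Cells that held 50% of the UMIs numbered 8 for Rsad2, 11 for Ifit3, 12 for Ifit2, 14 for Ifit1 and Oasl1 and 26 for Mx1. Isg15 had a dispersion of 2.46, Usp18 of 1.18, Oasl2 of 1.16 and Oas1a of 0.992, and 50% of their UMIs took 46, 28, 44 and 28 cells. These numbers of cells also depend on how many UMIs a gene has: Usp18 had 65 UMIs in 60 cells. They are therefore not compared between genes, and no value over all genes stands beside them. Of 6090 genes with at least 50 UMIs in WT LPS cells, 33.3% had a dispersion of at least 1 and 1.49% of at least 5, with a median of 0.656. Oasl1, with 42 UMIs, fell under that minimum. Without the 10 cells that held the most member UMIs, the dispersions of Rsad2, Ifit3, Ifit2 and Ifit1 were 2.75, 3.90, 5.55 and 5.26. Oasl1 stood at 7.20 and Mx1 at 4.81, both above Rsad2 and Ifit3, so that the order of the genes changed. Isg15, Usp18, Oasl2 and Oas1a stood at 2.16, 1.30, 0.992 and 1.03.

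**Figure D4:**
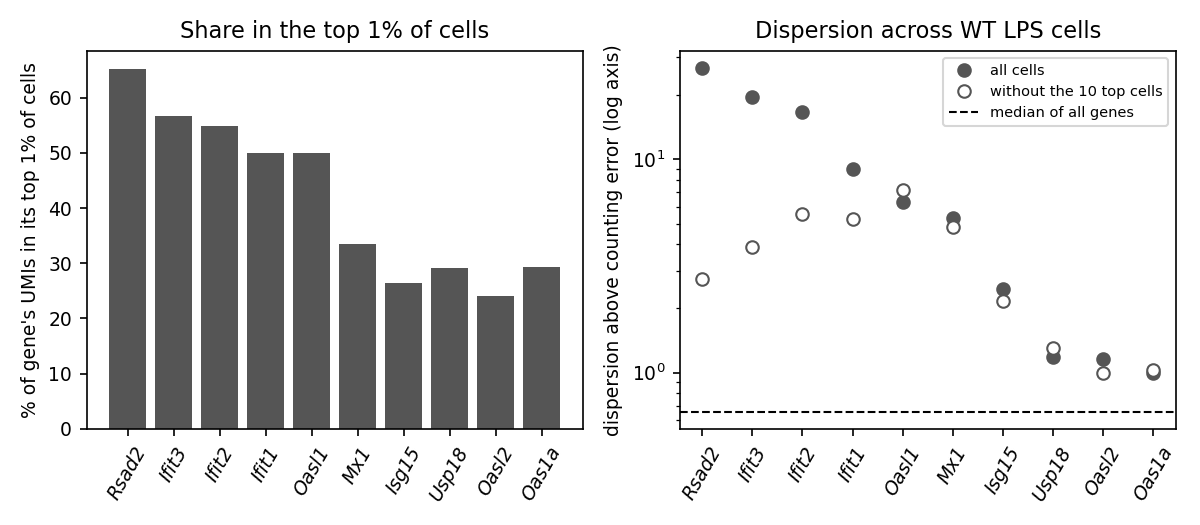
Left, percent of the UMIs of each gene in its top 1% of WT LPS cells; right, dispersion above counting error on a log axis, in all cells (filled) and without the 10 cells with the most member UMIs (open), with the median of all genes as a dashed line. Rsad2 stands highest with 65.2% and 26.8 in all cells, and the open points of Rsad2, Ifit3, Ifit2 and Ifit1 lie below the filled ones.

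The genes shared their cells. In WT LPS, 299 cells had a UMI of 1 of the genes, 71 of 2, and 49 cells (3.43%) of 3 or more, and these 49 cells held 46.6% of the UMIs. Single cells reached 9 of the 10 genes. In KO LPS, all 15 cells with a UMI had it from 1 gene, and 0 cells had UMIs of 2 genes. With 17 UMIs over 320 cells, shared cells could hardly occur, and nothing is read from their absence. Each gene was then compared between cells chosen by the other 9, with at least 3 UMIs of these, and all other WT LPS cells. Ifit2 was 22.5-fold (14.7 to 35.1), Ifit3 21.6-fold (13.4 to 35.6), Rsad2 19.7-fold (11.7 to 33.7) and Ifit1 15.7-fold (9.44 to 26.6) higher in the chosen cells. Mx1 at 9.02-fold, Oasl1 at 8.30-fold and Isg15 at 5.25-fold (3.69 to 7.37) stood between. Oas1a at 3.48-fold (1.85 to 6.19), Usp18 at 3.08-fold (1.58 to 5.66) and Oasl2 at 3.05-fold (1.88 to 4.80) were least tied to the other genes. Over the 45 pairs of genes, the correlation across the 1427 WT LPS cells ran from 0.005 for Usp18 and Oas1a to 0.443 for Ifit2 and Ifit3, which shared 24 cells. All cells come from 1 library, and cell depth enters each pair.

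**Figure D5:**
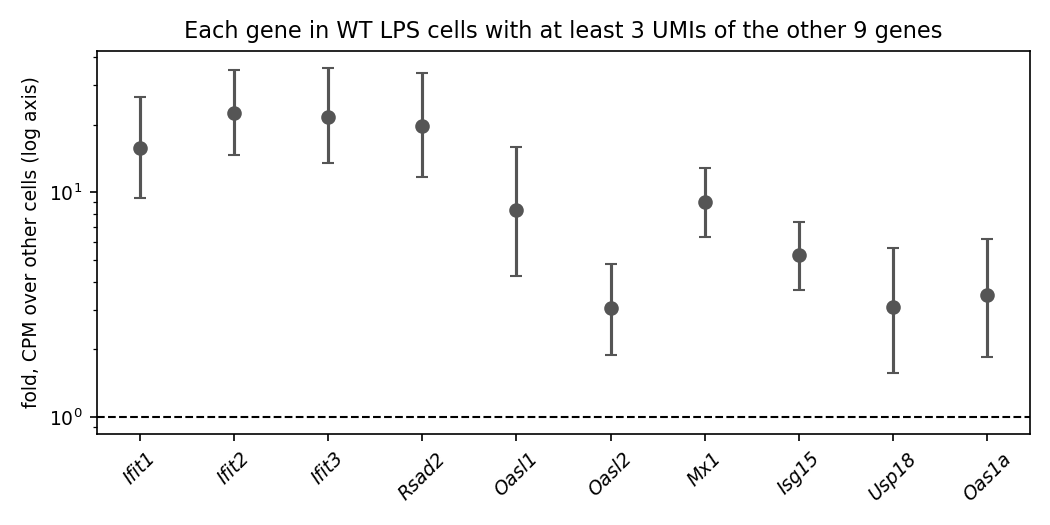
Level of each gene in WT LPS cells with at least 3 UMIs of the other 9 genes, as fold over the level in all other WT LPS cells on a log axis, with 95% intervals (counting error) as bars and equal levels as a dashed line. Every point lies above the line, from 3.05 for Oasl2 to 22.5 for Ifit2.

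The antiviral-high cells carried the homeostatic markers of microglia, as a sum, at the level of the other WT LPS cells. All 19 had a UMI of the homeostatic list, which summed to 25161 CPM in them and 24580 CPM in the other WT LPS cells, a ratio of 1.02 (0.945 to 1.11). Markers of neutrophils, border macrophages, B lymphocytes, T or NK lymphocytes, endothelial cells and choroid plexus were at 0 UMIs in them. These lists were scarce in the other WT LPS cells too, from 65.2 CPM for neutrophils and 35.1 CPM for border macrophages downward. The upper limits of the fold were 2.25 for neutrophils, 4.23 for border macrophages and 10.08 or higher for the others. Few UMIs were to be found, so that nothing is read from the zeros. The monocyte list and the list of plasmacytoid dendritic cells had 1 UMI each, and the astrocyte and oligodendrocyte lists 3 and 1. Their median depth was 1178 UMIs, beside 1064 in the others. Other interferon genes were higher in the antiviral-high cells: the list of other interferon-stimulated genes 5.51-fold (4.95 to 6.11), and Cxcl10 77.1-fold (55.8 to 106), with its UMIs in 7 of the 19 cells. The signalling list was 1.38-fold higher (1.02 to 1.83), with Irf7 at 8.68-fold (3.61 to 18.1) from 4 cells, Stat2 at 2.87-fold (1.22 to 5.75), Irf9 at 0.768 (0.158 to 2.27) and Jak1 at 0.476 (0.0978 to 1.40). The inflammatory list was 1.30-fold higher (1.16 to 1.45) as a sum, and its genes were spread widely. Ccl4, a chemokine, stood at 9.54-fold (6.09 to 14.4) from 5 of the 19 cells, Saa3 at 1.59-fold (1.36 to 1.85) from 7, Msr1, a scavenger receptor, at 0.715 (0.478 to 1.03) and Lcn2, which binds bacterial iron carriers, at 0.0872 (0.00220 to 0.487) with 1 UMI. The list of interferon ligands and receptors stood at 0.757 (0.517 to 1.07).

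The genes whose pattern across WT LPS cells was most like the sum of the 10 were taken from the 6081 other genes with at least 50 UMIs, by Pearson r over 1427 cells. The highest 12 were Cxcl10 (0.248), Ifi204 (0.232), Mx2 (0.216), Parp14 (0.193), Pyhin1 (0.191), Xaf1 (0.190), Phf11d (0.178), Slfn5 (0.171), Gm4951 (0.171), Eif2ak2 (0.171), Gm4955 (0.170) and Mnda (0.169). The median over all candidates was 0.012 and the 99th percentile 0.098.

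Each pool held a female and a male mouse, and cells were divided by UMIs of Xist and of Y-linked genes. A single such UMI can come from ambient RNA, so that the division is approximate and does not show which mouse a given cell came from. The 565 WT LPS cells with only Xist gave 496 CPM (449 to 547) and 10 antiviral-high cells, and the 195 with only Y-linked UMIs gave 576 CPM (494 to 667) and 4 antiviral-high cells. Ambient RNA of the pool enters cells of either mouse, so that these levels include RNA of the other. In KO LPS, the 200 cells with only Xist gave 30.7 CPM (13.3 to 60.5), and 12 cells with only Y-linked UMIs gave 1 UMI, which is too few to describe the male KO mouse. The 99 KO LPS cells with neither gave 84.1 CPM (36.3 to 166) from 8 UMIs, and the 9 with both gave 0 UMIs. The remaining 587 WT LPS cells with neither gave 406 CPM and 5 antiviral-high cells, and the 80 with both gave 356 CPM and 0.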

How the data were processed

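Levels of 10 antiviral genes were measured in sorted microglia of 1 KO LPS and 1 WT LPS library, grouped by the genotype label. The authors deposited raw counts, UMIs per gene and barcode (9999 barcodes per library), without normalisation. The submitters' processing notes name bcl2fastq 2.0, STAR and the builds mm9 and mm10. The counting program, annotation and use of strand are not given in the sources used here. Genes listed for 1 library only were read as 0 in the other.

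Cells were barcodes with at least 500 UMIs and 100 genes, in place of the cell calling of the study. They held 55.7% of the UMIs of KO LPS (684738) and 64.9% of those of WT LPS (3063795). Doublets were left in. UMIs were summed over cells, given per 1e6 UMIs, and compared as ratios with exact intervals (95%): Poisson for levels, conditional binomial for ratios, Clopper-Pearson for shares. The log2 ratio used a prior count of 0.5, and genes needed 20 UMIs over both libraries. A gene with 0 UMIs was given a bound from a floor of 3 UMIs in that library. Cells were thinned without replacement. The study's MAST test treats cells as replicates and was left out. Named genes were the 10 members, all detected relatives and partners, per other pathway list the highest and lowest ratio among genes with at least 50 UMIs and any gene with 0 UMIs in both libraries, the 12 genes most like the members, and Park7. Tmem119, Cx3cr1 and Csf1r are named as markers of microglia. Stat2, Irf9, Dhx58, Ifih1, Msr1, Ccl4, Lcn2, Ttr, S100a8, S100a9, Cox6a2, Mrc1, F13a1 and Slc1a3 were added to these after their values were seen. A few genes of the lists enter counts and sums and are not reported here by name. The members and lists were chosen with earlier results of these data known. Python 3.11.15, numpy 2.4.6, scipy 1.17.1, matplotlib 3.10.9 and biopython 1.88 were used, and the calculations were tested on simulated data. The alternatives were other cell minimums, cells left out, thinning, mean CPM, ambient subtraction, centring and other count settings.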

Additional observations from a re-analysis of the deposited data

Results flagged for a closer look

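UMIs of the antiviral genes were also found in barcodes that were not counted as cells. In KO LPS, 9679 such barcodes with 303433 UMIs held 18 UMIs of the 10 genes, or 59.3 CPM (95% Poisson interval 35.2 to 93.8), above the 9.89 CPM that a count of 3 would give. In WT LPS, 8572 such barcodes with 1074784 UMIs held 385 UMIs, or 358 CPM (323 to 396), above the corresponding 2.79 CPM. These barcodes hold both ambient RNA and cells under the minimum, whose shares were not tested.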

How the results depend on the processing

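For the 10 genes summed, the log2 ratio was -3.38 and ran from -4.72 to -3.02 over 12 alternatives. It was -4.72 without the 10 cells of each library with the most member UMIs, which takes 10 of the 15 KO LPS cells with a member UMI, and -3.02 without the antiviral-high cells. The latter and the setting without cells of doubtful barcode were chosen after seeing the data. Of 130 single-gene ratios under alternatives, 129 were below 0 and 125 stayed inside their counting interval. For the 5 genes without a UMI in KO LPS that interval has no lower end. The setting with a minimum of 1 UMI left all 10 values as they were. The 125 is therefore no measure of stability. Mx1 had a log2 ratio of 0.38 in cells with Y-linked UMIs only, which in KO LPS are 12 cells with 1 member UMI. In these cells 3 genes had enough UMIs, their median log2 ratio was -0.95, and 1 was at least 2-fold lower. The share of WT LPS cells with a member UMI was 25.3% at a minimum of 300 UMIs, 37.3% at 1000, 32.6% in cells with Xist only and 15.1% after thinning. In KO LPS it was 1.61% without the 10 cells, 8.33% in cells with Y-linked UMIs only and 1.88% after thinning. The top 1% of WT LPS cells held 15.8% of the member UMIs without the 10 cells and 24.2% after thinning. No paired analysis was possible because each genotype had 1 library. With 320 KO LPS cells, a share of antiviral-high cells of up to 0.938% (3 counts) or 1.15% (Clopper-Pearson) is allowed.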
